A study of Homo sapiens with 19 samples.

Results

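The nuclear genes for oxidative phosphorylation were examined in MOLM-13, a human acute myeloid leukaemia line, for how 3 histone marks lay at their start sites and how the marks differed after Corin. Members were the nuclear protein-coding genes of GENCODE release 44 whose names begin with NDUF, UQCR, COX4 to COX8 or ATP5, together with SDHA, SDHB, SDHC and SDHD. This gave 98 of 20033 genes: 38 of complex I, 8 of the NDUFAF assembly factors of complex I, 4 of complex II, 9 of complex III, 19 of complex IV and 20 of complex V. The rule used names alone, so it also took the read-through genes ATP5MF-PTCD1 and NDUFC2-KCTD14, which share their start regions with ATP5MF and NDUFC2. It left out CYC1, a complex III subunit, and the genes of the mitochondrial genome.

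Chromatin was profiled by CUT&RUN, in which an antibody-guided nuclease cuts out the fragments that carry a mark. H3K27ac, H3K4me2 and H3K4me3 each had 2 Corin-treated and 2 DMSO-treated (vehicle) libraries, 12 in all. Treatment lasted 24 h at 0.1 µM per the labels, which state that dose for the DMSO libraries too, where its meaning is unclear. Corin joins an inhibitor of the demethylase LSD1 with one of class I histone deacetylases, both of which sit in the corepressor complex CoREST, and the comparison asked where the marks lie after it. Not analysed here are 7 further libraries: 4 from cells that received retinoic acid and Corin, 2 IgG controls and 1 LSD1 profile. The labels do not say whether replicates came from separate cultures, so the spread between them may be technical.

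Oxidative phosphorylation takes place in the inner mitochondrial membrane. Complexes I and II pass electrons from NADH and succinate to ubiquinone, complex III passes them on to cytochrome c, and complex IV hands them to oxygen, while complexes I, III and IV pump protons. Complex V, the ATP synthase, lets the protons back and makes ATP. Most subunits are encoded in the nucleus at promoters that are active in nearly all cells, and the factors NRF1, GABP (an ETS factor) and YY1 are known regulators of many of them. A few complex IV subunits also have a second gene restricted to muscle, testis, lung or low-oxygen conditions. H3K4me3 marks active start sites, H3K4me2 flanks them and also marks enhancers, and H3K27ac marks active promoters and enhancers.

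The promoters of 78 of the 98 genes could be matched to the RefSeq table (GRCh38.p14, 250 bases before to 50 after the start). The RefSeq start lay over 1000 bp from the TSS used for the marks in 4 of the 78 (NDUFA5, COX7A2, ATP5F1A and NDUFAF3), whose promoters here are thus not those of the peak values. All 78 were searched on both strands for CCGGAAGT (ETS/GABP core), GCATGCGC (NRF1 core) and AANATGGCG (YY1 core). The GC box was searched as GGGCGGG. The TATA box was searched as TATAAA. The NRF1 core was in 19.2% of the 78 promoters, in 3.05% of all 35116 promoters of the table and in 6.45% of the 7894 promoters whose gene had H3K4me3 within 2 kb of its start in 4 of 4 libraries, called marked promoters from here on. For the YY1 core the shares were 20.5%, 3.19% and 8.42%, and for the ETS core 12.8%, 4.14% and 10.7%. The GC box went the other way, in 25.6% of the members, 33.1% of all promoters and 56.1% of marked promoters. TATAAA was in 8.97%, 11.5% and 4.78%. A match describes letters and does not show that a factor binds. The promoters of 5 members are printed 5′ to 3′ on the gene's strand, with motif matches in capitals and positions counted from the start as 0. COX6A1 (chr12:120437863-120438162, plus strand, NRF1 core at -218 and -174, YY1 core at 11) and COX6A2 (chr16:31428311-31428610, minus strand, TATA box at -201) are the widely expressed and the muscle form of the same complex IV subunit. COX8A (chr11:63974370-63974669, plus strand, ETS core at -19) and NDUFAF4 (chr6:96897842-96898141, minus strand, NRF1 core at 6) had large H3K27ac differences between the treatments, and UQCRC1 (chr3:48609597-48609896, minus strand, YY1 core at 23) lies beside regions that had peaks in the Corin libraries and none in DMSO.
COX6A1: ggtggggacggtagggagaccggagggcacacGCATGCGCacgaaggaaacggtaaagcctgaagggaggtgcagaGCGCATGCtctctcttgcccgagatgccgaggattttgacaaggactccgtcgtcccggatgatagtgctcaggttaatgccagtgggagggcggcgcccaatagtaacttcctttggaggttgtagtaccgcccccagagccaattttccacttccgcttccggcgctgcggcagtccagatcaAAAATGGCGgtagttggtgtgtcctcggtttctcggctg
COX6A2: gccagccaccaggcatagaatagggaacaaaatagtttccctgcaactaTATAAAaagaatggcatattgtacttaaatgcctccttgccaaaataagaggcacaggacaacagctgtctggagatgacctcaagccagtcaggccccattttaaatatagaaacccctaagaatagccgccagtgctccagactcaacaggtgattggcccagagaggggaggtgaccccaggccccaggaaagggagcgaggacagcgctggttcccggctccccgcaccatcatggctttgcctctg
COX8A: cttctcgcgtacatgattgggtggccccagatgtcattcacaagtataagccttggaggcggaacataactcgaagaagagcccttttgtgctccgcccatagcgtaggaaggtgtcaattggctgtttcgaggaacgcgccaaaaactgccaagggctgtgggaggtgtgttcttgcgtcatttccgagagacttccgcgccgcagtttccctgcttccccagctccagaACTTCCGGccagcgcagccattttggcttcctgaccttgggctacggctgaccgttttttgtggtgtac
NDUFAF4: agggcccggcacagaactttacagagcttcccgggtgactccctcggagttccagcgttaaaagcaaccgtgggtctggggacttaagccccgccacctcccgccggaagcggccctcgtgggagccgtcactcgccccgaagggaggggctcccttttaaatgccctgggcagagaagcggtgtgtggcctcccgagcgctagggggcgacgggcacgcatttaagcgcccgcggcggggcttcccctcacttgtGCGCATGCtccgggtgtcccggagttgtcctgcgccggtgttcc
UQCRC1: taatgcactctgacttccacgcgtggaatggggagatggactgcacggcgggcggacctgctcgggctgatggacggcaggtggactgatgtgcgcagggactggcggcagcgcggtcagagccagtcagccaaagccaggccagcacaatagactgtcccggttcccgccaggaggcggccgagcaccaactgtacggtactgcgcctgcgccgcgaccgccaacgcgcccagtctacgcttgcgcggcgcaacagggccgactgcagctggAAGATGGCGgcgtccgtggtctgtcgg
The COX6A1 promoter held 22 CpG and the COX6A2 promoter 5. The median over the 78 members was 23 CpG, against 14 over the whole table, 22 over protein-coding genes and 27 over marked promoters.

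H3K27ac lists held 17599 to 34424 peaks, H3K4me2 lists 30896 to 41152 and H3K4me3 lists 11104 to 11883. For each mark both Corin lists were longer than both DMSO lists, and the H3K27ac lists covered 26.1 and 20.1 Mb in Corin against 11.1 and 12.6 Mb in DMSO. The lists hold no read totals, and the labels state only that each library had at least 5000000 paired reads of 150 bp; depth is thus unknown, and no interval or detection floor was computed. Each mark was therefore also compared at the number of peaks of its shortest list, called the matched number here (17599, 30896 and 11104). Of 10 myeloid marker genes, 8 had H3K4me3 within 2 kb of the start site in 4 of 4 libraries, and MPO was at 0 in all 4. All 10 markers of other lineages were at 0.

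Most oxidative phosphorylation genes had marked start sites in both treatments. The measure throughout is the length in base pairs (bp) under peaks within 2 kb, or within 10 kb, either side of the transcription start site (TSS). H3K4me3 lay within 2 kb of the TSS of 89 of 98 members in 4 of 4 libraries, the condition for a marked promoter, which 9776 of all 20033 genes met. A peak lay within 1 kb of the TSS of 89 or 90 members for H3K4me3, of 88 or 89 for H3K4me2, and of 71 to 86 for H3K27ac. Over all genes the share within 1 kb was 49.4% to 50.9% for H3K4me3, 59.9% to 62.1% for H3K4me2 and 29.6% to 41.9% for H3K27ac. H3K27ac peaks lay over the TSS itself in 60 and 60 members in Corin and 37 and 49 in DMSO. The lowest H3K27ac value in each case came from DMSO replicate 1, the shortest list, and 15 members had no H3K27ac within 2 kb in that library alone.

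The median member had 1449 and 1353 bp of H3K4me3 within 2 kb in the Corin libraries and 1314.5 and 1377 bp in the DMSO libraries. The medians overlapped between treatments and lay below those of marked promoters in each library, which were 1392.5 to 1522.5 bp. The H3K4me2 medians were 1806.5 and 1735 bp in Corin and 1685 and 1894 bp in DMSO, below the marked promoters in each of the 4 libraries, where they were 1968 to 2231.5 bp. H3K27ac separated the treatments. Its medians were 1008 and 888.5 bp in Corin and 476.5 and 689.5 bp in DMSO, so both Corin libraries lay above both DMSO libraries. The medians of marked promoters, 912.5 and 772 against 345 and 538 bp, were lower in each library. The score the authors gave each peak ranked the best H3K4me3 peak of the median member at percentile 77.7 to 79.7 of its own list, above marked promoters (61.7 to 63.9) and below ribosomal protein genes (95.8 to 96.6).

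**Figure D1:**
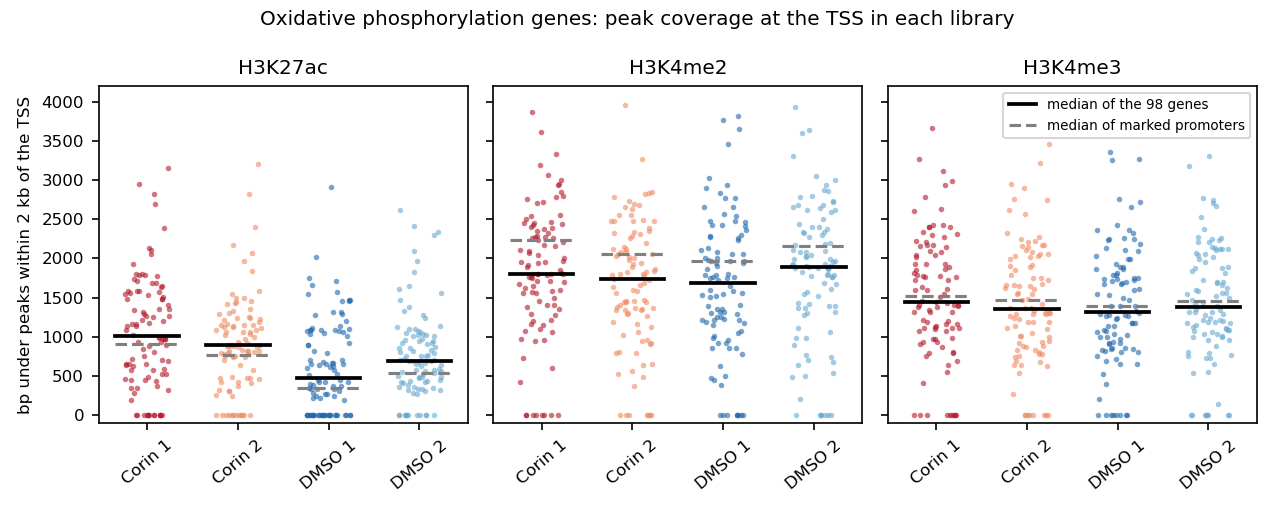
Each point is 1 of the 98 genes, plotted as bp under peaks within 2 kb of its TSS (vertical axis) in each of the 12 libraries. Solid bars are the members' medians and dashed bars those of marked promoters; the H3K27ac medians of the Corin libraries (1008 and 888.5 bp) sit above those of the DMSO libraries (476.5 and 689.5 bp).

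Each mark had its own shape around the TSS. In bins of 250 bp along the direction of transcription, H3K4me3 covered 89.1% to 89.9% of the first bin downstream of the TSS of the average member and 90.6% to 90.8% of the second. H3K27ac was highest in that first bin, with 75.6% and 77.5% in Corin and 53.4% and 68.7% in DMSO. H3K4me2 showed a trough at the TSS between 2 shoulders. Its highest bin lay 750 to 1000 bp downstream, at 82.8% and 76.6% in Corin and 81.8% and 80.9% in DMSO.

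H3K4me2 peaks lay over the TSS itself in 33 and 28 members in Corin and 31 and 48 in DMSO, so the treatments overlapped there and DMSO replicate 2 stood apart. The treatments separated further downstream. In the first bin downstream of the TSS, H3K4me2 covered 35.1% and 32.8% in the Corin libraries and 41.0% and 52.6% in the DMSO libraries. In the bin at 1250 to 1500 bp downstream the order was the opposite, with 59.4% and 52.1% in Corin and 47.5% and 47.8% in DMSO. The groups did not overlap in either bin. At the matched number both orders stayed, with 31.8% and 30.1% against 41.0% and 52.1% in the first bin and 58.5% and 48.9% against 47.5% and 47.8% in the outer one. For marked promoters the first bin overlapped between treatments (52.1% and 50.3% against 47.5% and 67.5%), because the DMSO replicates lay on both sides, while the outer bin did not (67.8% and 61.1% against 57.5% and 57.7%). Whether members differ from marked promoters in this was not tested. DMSO replicate 2 had the shallowest trough in both classes. Of the members with H3K4me3 over the TSS, 60.8% and 63.0% in Corin, 58.9% in DMSO replicate 1 and 38.0% in DMSO replicate 2 had no H3K4me2 over the TSS but had it 500 to 1500 bp downstream. Marked promoters had lower shares, with DMSO replicate 2 again the lowest, at 48.8%, 48.7%, 54.7% and 33.1%.

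**Figure D2:**
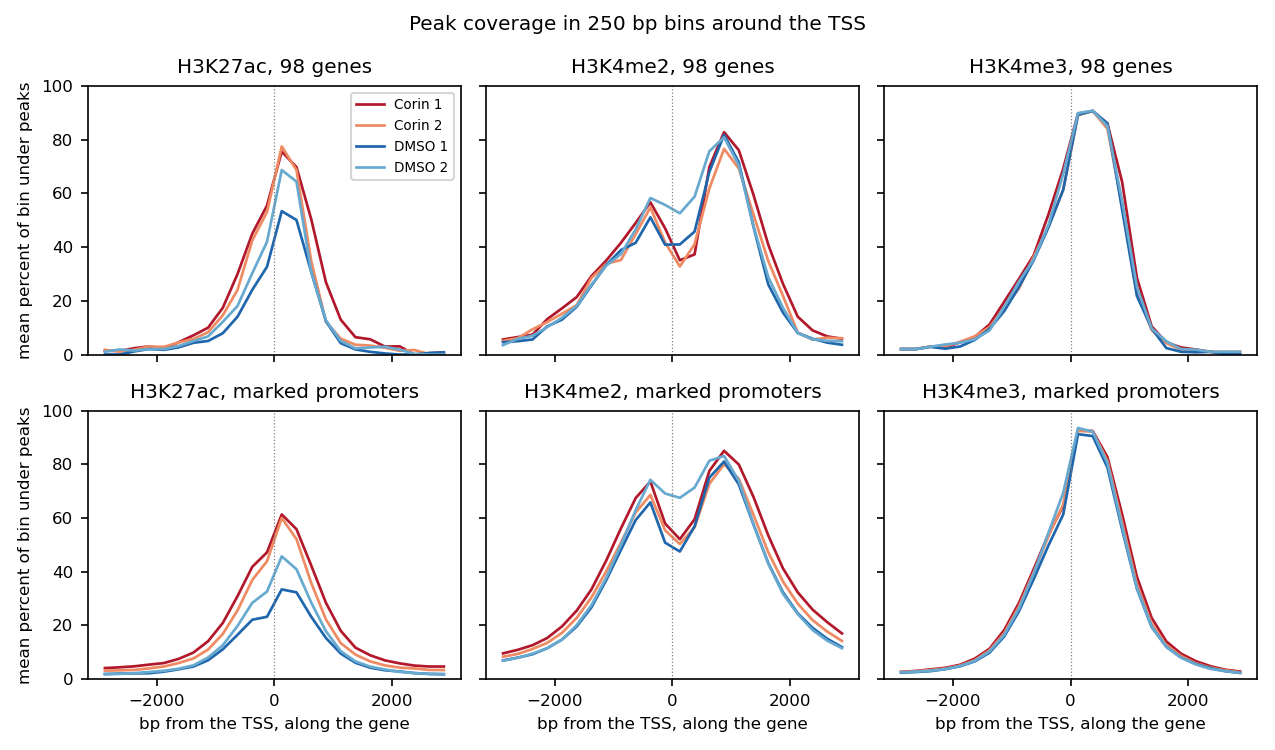
Lines give the mean percent of each 250 bp bin under peaks (vertical axis) by distance from the TSS in bp along the gene (horizontal axis), 1 line per library, for the 98 genes (top) and marked promoters (bottom). The H3K4me2 panel of the 98 genes shows the trough around the TSS, where the first bin downstream is lowest in the Corin libraries (35.1% and 32.8%), and the H3K4me3 lines nearly coincide there (89.1% to 89.9%).

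The exceptions to this pattern were mostly the tissue-restricted forms. Within 2 kb, 7 members were at 0 in all 12 libraries, for H3K27ac, H3K4me2 and H3K4me3 alike. They were COX4I2 (the lung and low-oxygen form of subunit 4), COX6A2 and COX7A1 (heart and skeletal muscle forms), COX7B2 and COX8C (testis forms), and the copies ATP5MGL and UQCRHL of ATP5MG and UQCRH. How reads that fit both UQCRH and UQCRHL were placed is not given in the sources used here. For the 5 complex IV genes among them the window of 10 kb was also at 0 in all 12 libraries. Their widely expressed partners all carried H3K4me3. COX4I1 had 2402 and 2111 bp of H3K4me3 in Corin and 2235 and 2121 bp in DMSO, and COX6A1, whose promoter is printed above beside that of COX6A2, had 1440 and 995 against 1226 and 1145 bp. COX8A had 2040 and 1887 against 1708 and 1592 bp.

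A pair of restricted forms lay between these states. COX6B2, a testis form, had no H3K27ac in any library and 1076, 925, 1227 and 988 bp of H3K4me2 in Corin replicates 1 and 2 and DMSO replicates 1 and 2. Its H3K4me3 was 200 bp in DMSO replicate 1 and 0 in the other libraries. NDUFA4L2, the hypoxia-induced relative of NDUFA4, likewise had no H3K27ac, H3K4me2 of 723, 945, 921 and 985 bp, and H3K4me3 of 265 bp in Corin replicate 2 and 145 bp in DMSO replicate 2. Both genes thus held H3K4me2 in 4 of 4 libraries with little or no H3K4me3, and neither came to hold H3K27ac within 2 kb in a Corin library.

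**Figure D3:**
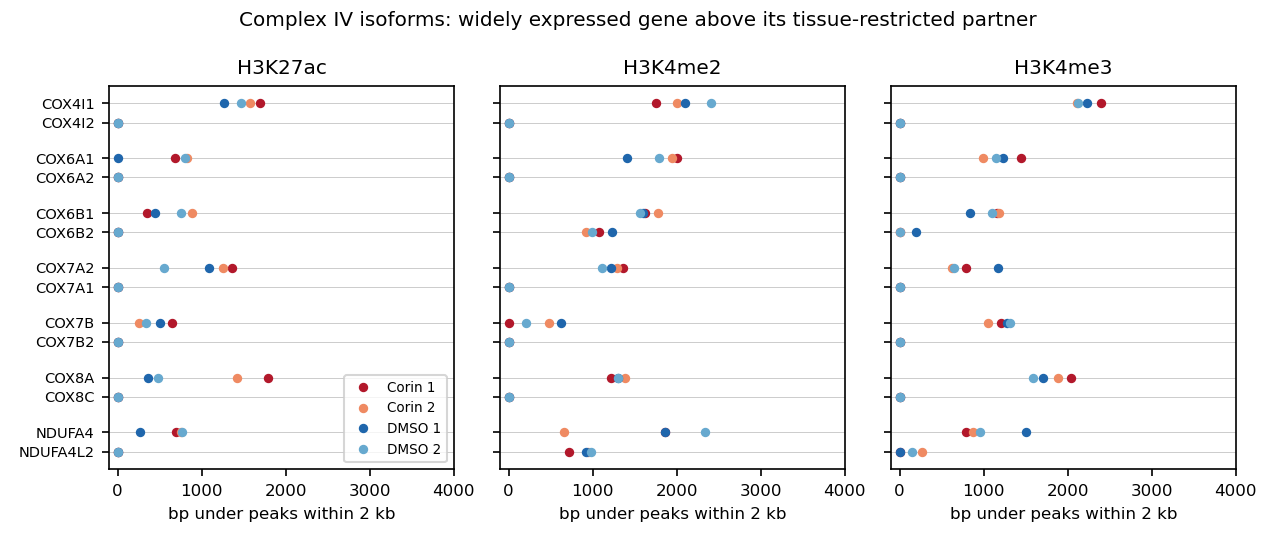
Points give bp under peaks within 2 kb of the TSS (horizontal axis) in each library for 7 pairs of complex IV genes, the widely expressed gene above its restricted partner. COX4I2, COX6A2, COX7A1, COX7B2 and COX8C are at 0 in each panel, and COX6B2 and NDUFA4L2 hold H3K4me2 only, apart from H3K4me3 of 265 bp or less.

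By bp under peaks, H3K27ac was the mark with the most members higher after Corin. By number of peaks H3K4me2 had more, 6 against 3 within 2 kb and 9 against 5 within 10 kb. A gene is called separated when the lower of its Corin values exceeded the higher of its DMSO values, or the reverse. With 2 libraries against 2, an exact two-sided permutation test cannot give a p below 0.33, so these counts are read against the share of all genes. Within 2 kb, 39 of 98 members were higher (39.8%) and 1 was lower, NDUFB6. Over all genes 22.2% were higher and 0.319% lower, and among marked promoters 42.6% and 0.614%. Within 10 kb, 50 members were higher and 1 lower, against 29.0% and 0.314% of all genes and 50.6% and 0.542% of marked promoters. The members' shares were thus above those of all genes and near those of other genes with a marked promoter. The members' median difference within 2 kb was 242 bp, and that of marked promoters 285.5 bp. At the matched number 28 members were higher within 2 kb, all among the 39, and 3 were lower (28.6% and 3.06%), against 13.3% and 1.54% of all genes and 25.9% and 3.07% of marked promoters. Within 10 kb 32 were higher, all among the 50, and 3 lower (32.7% and 3.06%), against 16.9% and 1.69% of all genes and 29.8% and 3.07% of marked promoters. Counts without 1 library were larger, because 3 libraries separate more easily than 4. Within 2 kb they were 53 higher and 11 lower without Corin replicate 1, and 62 and 6 without Corin replicate 2. Without DMSO replicates 1 and 2 they were 47 and 9, and 61 and 5. In that order 54.1%, 63.3%, 48% and 62.2% of members were higher. Of all genes 28.4%, 34.2%, 26.7% and 30.8% were, and of marked promoters 54.5%, 65.2%, 51.6% and 59.8%. Of all genes 3.28%, 1.08%, 4.28% and 2.13% were lower.

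COX8A, a small complex IV subunit, had the largest H3K27ac difference within 2 kb. It was 1790 and 1420 bp in Corin (1605 ± 262 bp, SD, n = 2) and 367 and 484 bp in DMSO (425.5 ± 82.7 bp, SD, n = 2), a difference of 1179.5 bp with an SE of 238.8 bp and a limma adjusted p of 0.189. Each Corin value was thus far above each DMSO value, although the difference did not pass the test. A region of 1476 bp that starts 700 bp downstream of the TSS, in an intron of COX8A (chr11:63975320-63976795), was under peaks for 1476 and 776 bp in the Corin libraries and 0 bp in DMSO, and its far end lies outside the 2 kb window. NDUFAF3, an early assembly factor of complex I, had 3159 and 3202 bp in Corin and 1754 and 2303 bp in DMSO, a difference of 1152 bp that was 649.5 bp with the TSS at the end of the gene record. NDUFAF4, its partner in that step, had 1341 and 1428 against 337 and 566 bp. ATP5F1E, the epsilon subunit of the ATP synthase, had 1549 and 1150 bp in Corin and 0 and 676 bp in DMSO. NDUFB6, a membrane subunit of complex I, was listed at 460 and 0 bp in Corin and 520 and 562 bp in DMSO, so Corin replicate 1 lay near DMSO and only Corin replicate 2 was at 0, and it was not separated at the matched number.

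Within 10 kb, NDUFB9, a membrane subunit of complex I, stood first with 6373 and 6162 bp in Corin and 4254 and 4229 bp in DMSO. Its difference of 2026 bp (SE 220.8 bp) had the lowest limma adjusted p of all members and windows, 0.0709. Its TSS lies 38 bp from that of TATDN1 on the other strand, so the windows of the pair cannot be told apart. NDUFS8, a core iron-sulfur subunit of complex I, had 4299 and 4256 bp in Corin and 1270 and 3376 bp in DMSO, a wide gap between the DMSO replicates. NDUFAF3 had 5137 and 3917 against 2256 and 3310 bp, a difference of 1744 bp that was 859.5 bp at the matched number.

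H3K4me2 had fewer separated members, in both directions. Within 2 kb, 18 members were higher and 10 lower, where 18.1% of all genes were higher and 4.73% lower, and 24.7% and 8.57% of marked promoters. Within 10 kb, 31 were higher and 8 lower, where the shares of all genes were 28.2% and 2.78% and those of marked promoters 37.4% and 4.32%. The balance turned with the number of peaks. At the matched number 10 members were higher and 20 lower within 2 kb (10.2% and 20.4%), against 15.4% and 7.03% of all genes and 21.2% and 12.4% of marked promoters. All 10 members that were lower with all peaks were among these 20, and 9 of the 18 that were higher stayed so, while 2 of the 18 turned to lower. Within 10 kb 20 were higher and 14 lower (20.4% and 14.3%), against 21.8% and 5.4% of all genes and 29.1% and 8.32% of marked promoters. The balance also hung on the DMSO replicate kept: within 2 kb it was 23 higher and 37 lower without DMSO replicate 1, and 46 higher and 17 lower without DMSO replicate 2. The whole set of genes shifted with the replicate too, from 23% higher and 19.9% lower to 37% and 8.44% over all genes, and from 32.8% and 32.4% to 54% and 14.9% among marked promoters. Without Corin replicate 1 it was 28 and 31, and without Corin replicate 2 it was 36 and 19, against 24.5% and 17.1%, and 34.4% and 8.27%, of all genes. Within 10 kb it was 37 and 23, 51 and 11, 40 and 29, and 58 and 15 without Corin replicates 1 and 2 and DMSO replicates 1 and 2, where 33.5% to 46.9% of all genes were higher and 5.14% to 15.2% lower.

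NDUFA12, an accessory subunit of complex I, had the largest positive H3K4me2 difference within 2 kb, with 2090 and 1444 bp in Corin and 778 and 767 bp in DMSO. Its mean difference was 994.5 bp. The difference was 627.5 bp at the matched number, where the treatments overlapped, with 2090 and 710 against 778 and 767 bp. NDUFA13, another accessory subunit of complex I, had 2448 and 2473 bp in Corin and 1744 and 1881 bp in DMSO, a difference of 648 bp that was 258 bp with the TSS at the end of the gene record. ATP5MK, a small membrane subunit of the ATP synthase, had 3066 and 1980 against 1524 and 1772 bp. In NDUFA13 the replicates of each treatment lay close together, and in ATP5MK the Corin replicates lay far apart.

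Among the lower members NDUFAF3 came first, with 2706 and 2114 bp of H3K4me2 in Corin and 3648 and 3303 bp in DMSO. Counted by number of peaks in place of bp, its direction turned for H3K4me2 (1.5 more peaks in Corin) and for H3K27ac (difference of -1.5 peaks). Within 10 kb it overlapped between treatments, with 9191 and 8604 against 8110 and 8928 bp, and the mean was higher in Corin. NDUFA4, now counted as a complex IV subunit, had 1857 and 656 against 1863 and 2332 bp, groups that just miss overlapping. ATP5PO, the stalk subunit that joins the 2 parts of the ATP synthase, had 940 and 956 against 1257 and 1970 bp, and 0.5 more peaks in Corin. None of these differences passed the limma test, whose lowest adjusted p for a member within 2 kb was 0.551 for NDUFA13.

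Within 10 kb the largest H3K4me2 difference belonged to ATP5MJ, a small ATP synthase subunit, with 2695 and 2280 bp in Corin and 0 and 703 bp in DMSO (limma adjusted p 0.103). Its bp came mostly from outside the promoter. A region of 4198 bp in an intron of TDRD9, 8274 bp upstream of the ATP5MJ start (chr14:103929803-103934000), held 4198 and 3982 bp of peaks after Corin and none in either DMSO library. With the TSS taken at the end of the gene record, which shifts the window over that region, the difference was 4544 bp rather than 2136 bp. ATP5IF1, the inhibitor protein of the ATP synthase, had 6104 and 5104 against 3586 and 3970 bp, and COX6A1 had 4423 and 4231 against 2966 and 3270 bp. COX7A2L, which helps join complexes III and IV, was lower with 2309 and 1719 against 2359 and 2643 bp, and its difference was 0 bp with the TSS at the end of the gene record and 0.5 more peaks in Corin by number.

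H3K4me3 also had separated members in both directions. Within 2 kb, 21 members were higher and 7 lower, where 12.6% of all genes were higher and 4.88% lower, and 24.2% and 9.54% of marked promoters. Within 10 kb, 22 were higher and 7 lower, against 14.7% and 4.77% of all genes and 26.3% and 8.76% of marked promoters. The matched number hardly moved these counts, with 22 higher and 8 lower within 2 kb (all genes 11.9% and 5.23%, marked promoters 23.5% and 10.1%), and the 21 and the 7 all stayed. Without Corin replicates 1 and 2 and DMSO replicates 1 and 2 the counts within 2 kb were 26 and 29, 48 and 13, 30 and 24, and 44 and 20, and within 10 kb 30 and 28, 45 and 13, 31 and 24, and 47 and 21. Among marked promoters 36.4% to 48.3% were then higher and 20.2% to 27.8% lower within 2 kb, and 38.3% to 50.4% and 19.1% to 26.8% within 10 kb. Over all genes the ranges were 18.6% to 24.9% and 10.4% to 14.5%, and 21% to 28.1% and 10.5% to 15.1%. Differences were small beside the widths: the members' median difference within 2 kb was 28.5 bp.

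Among separated members the largest positive H3K4me3 differences within 2 kb were those of ATP5MF and NDUFB9. ATP5MF, a membrane subunit of the ATP synthase, had 1600 and 1295 bp in Corin and 992 and 1192 bp in DMSO. NDUFB9 had 2175 and 2076 against 1735 and 1874 bp. ATP5MF-PTCD1 has the values of ATP5MF because it starts 3 bp away. On the lower side NDUFA4 had 795 and 868 against 1499 and 961 bp, COX5B, a matrix-side subunit of complex IV, had 1458 and 1184 against 1678 and 1526 bp, and NDUFB5, a complex I membrane subunit, had 1636 and 1549 against 1746 and 1892 bp. NDUFA4 was thus lower for H3K4me2 and for H3K4me3, with 1 DMSO replicate well above the rest for H3K4me3.

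Within 10 kb ATP5F1B, the catalytic beta subunit of the ATP synthase, had 2775 and 2167 bp of H3K4me3 in Corin and 1615 and 1686 bp in DMSO. A region in an intron of BAZ2A, 8882 bp downstream of its TSS (chr12:56636120-56637102), held 983 and 449 bp of this in Corin and none in DMSO. ATP5F1D, the delta subunit, was lower with 4819 and 5135 against 5306 and 5777 bp.

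**Figure D4:**
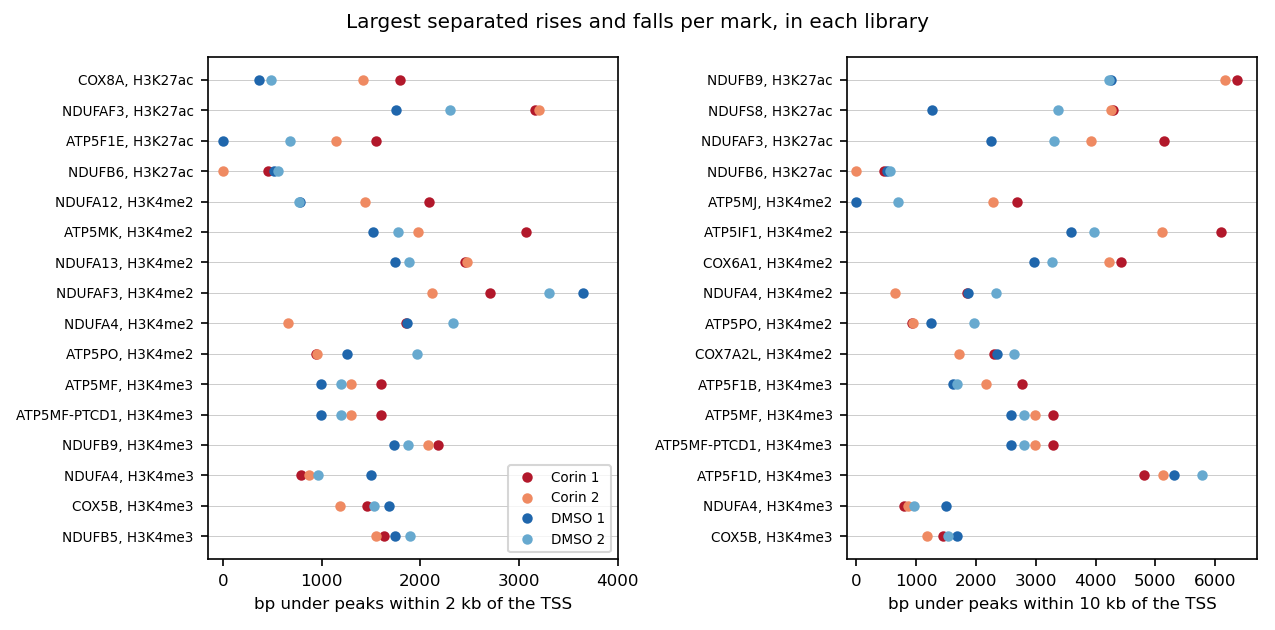
Points give bp under peaks within 2 kb (left) and 10 kb (right) of the TSS in each library for the members with the largest differences of either sign among separated members of each mark. COX8A (1790 and 1420 against 367 and 484 bp) and NDUFB9 (6373 and 6162 against 4254 and 4229 bp) show the widest gaps between treatments for H3K27ac.

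**Figure D5:**
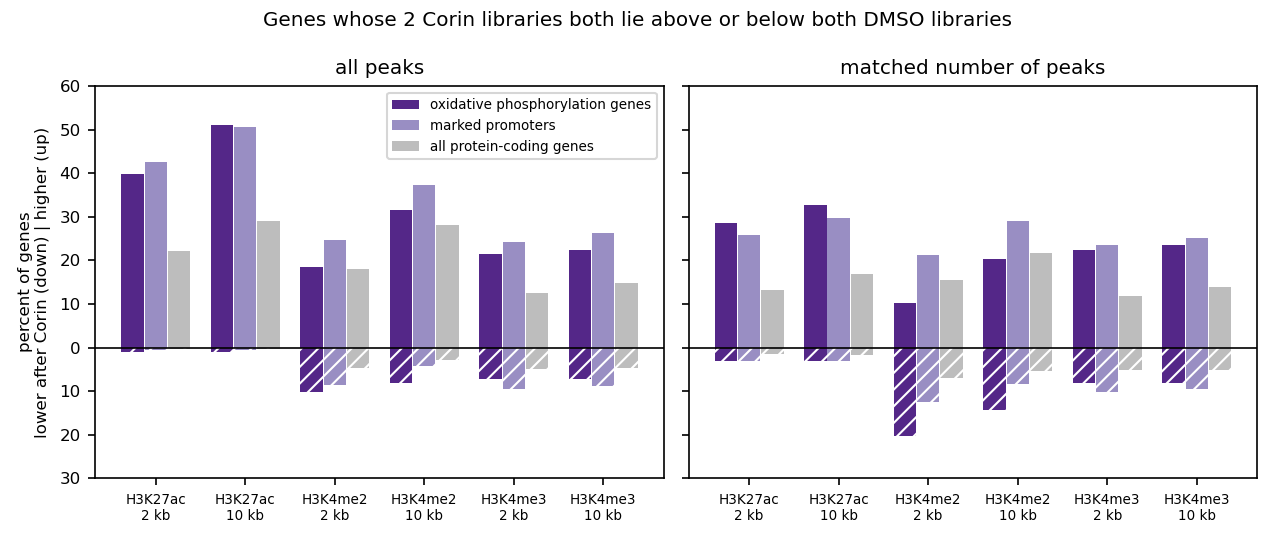
Bars above 0 give the percent of genes higher and hatched bars below 0 the percent lower after Corin, by mark and window, with all peaks (left) and at the matched number (right). Members track marked promoters for H3K27ac and H3K4me3, and for H3K4me2 within 2 kb at the matched number 10.2% of members were higher and 20.4% lower.

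No member passed the test across all genes. The limma fits on bp, with Benjamini-Hochberg adjustment over 9334 to 14255 genes with bp above 0 in at least 1 library, called 0 genes at an adjusted p of 0.05 for any mark or window, 0% of the genes fitted. The filter kept 89 (2 kb) and 91 (10 kb) of the 98 members in the H3K27ac fits, 91 and 93 in the H3K4me2 fits, and 91 and 92 in the H3K4me3 fits. At an unadjusted p under 0.05 limma listed 10 members within 2 kb and 16 within 10 kb for H3K27ac, where it listed 1554 and 2404 of all genes fitted. The counts were 3 and 7 for H3K4me2 (936 and 2079 genes) and 3 and 6 for H3K4me3 (665 and 832 genes). No other tool was run.

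In each complex some members were higher for H3K27ac. Within 2 kb, 14 of 38 complex I genes were higher, 3 of 8 assembly factors, 2 of 4 complex II genes, 4 of 9 complex III genes, 6 of 19 complex IV genes and 10 of 20 ATP synthase genes, where 22.2% of all genes and 42.6% of marked promoters were. The counts at the matched number were 8, 2, 1, 3, 5 and 9 in the same order, so complex I moved most in number. Of all genes 13.3% were then higher, and of marked promoters 25.9%. Complex IV had the lowest median difference, 29 bp against 236 to 404.25 bp in the others, and it also holds the 7 restricted forms that had no H3K27ac.

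For H3K4me2 and H3K4me3 the counts by complex were small. Within 2 kb, 8 complex I genes were higher for H3K4me2 and 0 lower, complex IV had 4 higher and 3 lower and the ATP synthase 1 higher and 2 lower, where 18.1% of all genes were higher and 4.73% lower. The balance in complex I turned at the matched number to 5 higher and 6 lower, complex IV had 1 and 4, and the ATP synthase stayed at 1 and 2. Of all genes 15.4% were then higher and 7.03% lower, and of marked promoters 21.2% and 12.4%. For H3K4me3 the ATP synthase had 8 higher and 1 lower, including the pair ATP5MF and ATP5MF-PTCD1, and complex I had 7 higher and 3 lower. Of all genes 12.6% were higher and 4.88% lower, and of marked promoters 24.2% and 9.54%. With the matched number of peaks the ATP synthase had 8 and 2 and complex I 8 and 3, against 11.9% and 5.23% of all genes. Whether complexes differ was not tested.

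Complex II, which also serves the citric acid cycle, showed the range within 1 enzyme. H3K27ac of SDHA, the flavoprotein subunit, was 634 and 1126 bp in Corin and 0 and 421 bp in DMSO within 2 kb, and that of SDHC, a membrane anchor, 847 and 898 against 659 and 327 bp. SDHA stayed separated at the matched number and SDHC overlapped. SDHB, the iron-sulfur subunit, had 315 and 776 against 0 and 315 bp, which meet at 315. SDHD, the other anchor, had 1310 and 793 against 1313 and 967 bp, with no order between treatments. SDHC was also lower for H3K4me2, with 1573 and 1557 against 1785 and 1988 bp.

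ATP5MC1, ATP5MC2 and ATP5MC3 encode the same mature c subunit of the proton-driven ring. For H3K27ac ATP5MC1 had 896 and 1237 bp in Corin and 0 and 709 bp in DMSO, ATP5MC2 had 989 and 747 against 899 and 1104 bp, and ATP5MC3 had 1589 and 810 against 1545 and 919 bp. ATP5MC1 was separated for H3K27ac with all peaks and not at the matched number, and the other two overlapped between treatments. For H3K4me3 ATP5MC2 was separated, with 1131 and 1142 against 970 and 1087 bp.

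Some members had more H3K27ac and less H3K4me2. Within 2 kb, 6 of the 10 members with lower H3K4me2 had higher H3K27ac (60.0%), against 388 of 838 marked promoters (46.3%). The share was 7 of 20 (35.0%) at the matched number, against 27.5% of marked promoters. With all peaks they were NDUFAF3, NDUFAF4, SDHC, COX4I1, COX7A2L and ATP5PF, and 5 of them, all but SDHC, had both differences at the matched number too. COX4I1 had H3K27ac of 1690 and 1580 against 1271 and 1469 bp beside H3K4me2 of 1760 and 2003 against 2101 and 2406 bp. COX7A2L had H3K27ac of 1633 and 1138 against 0 and 754 bp beside H3K4me2 of 2173 and 1657 against 2359 and 2643 bp. In both genes the marks thus differed in opposite directions, and no difference between marks was tested. Only NDUFB8, a complex I membrane subunit, was higher for all 3 marks within 2 kb, 1.02% of members against 3.51% of marked promoters and 1.87% of all genes. Its H3K27ac overlapped between treatments at the matched number. No member was then higher for all 3 marks within 2 kb, against 2.06% of marked promoters and 1.06% of all genes. The 10 kb window differed. With all peaks 5 members were higher for all 3 marks there (5.10%), against 7.84% of marked promoters and 4.37% of all genes. At the matched number 5 were (5.10%), ATP5MF and ATP5MF-PTCD1 among them, against 3.99% and 2.23%.

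Few peak regions near members were present in 1 treatment only. When the 4 lists of a mark were merged into regions, 8 of the 174 H3K27ac regions within 10 kb of a member's TSS had peaks in both Corin libraries and neither DMSO library (4.6%), where 11.5% of all H3K27ac regions did. None had the opposite pattern, which 0.180% of all regions had. For H3K4me2 it was 5 of 194 (2.58%) against 9.64% and 0 against 0.158%, and for H3K4me3 2 of 110 (1.82%) against 1.49% and 0 against 0.289%. Of the regions near members 47.7%, 79.9% and 95.5% were present in 4 of 4 libraries for H3K27ac, H3K4me2 and H3K4me3. Of all regions 22.8%, 55.6% and 80.8% were. At the matched number 1 H3K27ac region near a member was present in Corin only and 1 in DMSO only, which is 0.714% each against 4.49% and 1.59% of all regions. For H3K4me2 there were 2 and 6, or 1.1% and 3.31% against 3.91% and 1.7% of all regions. All regions include those far from any gene's start, and regions near marked promoters were not counted. Whether members differ from other promoters in this was thus not tested.

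UQCRC1, a core protein of complex III, had regions of both marks at the same place in the Corin libraries. An H3K27ac region 4722 bp upstream of its TSS (chr3:48614368-48615063) and an H3K4me2 region 4437 bp upstream (chr3:48614083-48614839), both intergenic and overlapping, had 696 and 203 bp and 757 and 404 bp under peaks in the Corin libraries and none in DMSO. NDUFA3, an accessory subunit of complex I, had 2 H3K27ac regions in Corin only, both within OSCAR, a neighbouring immune receptor gene (850 and 258 bp wide). With the matched number of peaks the COX8A region and the ATP5MJ and ATP5F1B regions described above still had peaks in both Corin libraries and none in DMSO. The UQCRC1 and NDUFA3 regions did not, since each had no such peak left in at least 1 Corin library. Which gene such a region serves was not tested.

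Oxidative phosphorylation genes often share their promoter. Another protein-coding gene started within 1 kb upstream, on the opposite strand, for 29 of 98 members (29.6%), against 9.46% of all genes and 17.7% of marked promoters. One such pair is ATP5PF, a stalk subunit, and GABPA, the gene of the ETS factor named above, whose starts lie 68 bp apart. Their H3K27ac values were the same, 2822 and 2166 bp in Corin and 2019 and 2092 bp in DMSO. Of the 29 shared promoters 13 were higher for H3K27ac within 2 kb (44.8%), and of the other 69 members 26 were (37.7%). Of the 29, 10 were higher at the matched number (34.5%) and 3 lower, and of the 69, 18 (26.1%) and 0. Marked promoters, with or without such a neighbour, were then higher in 25.9% and lower in 3.07%, and all genes in 13.3% and 1.54%. Marked promoters were not split by neighbour at the matched number. With all peaks, 760 of 1728 marked promoters with such a neighbour were higher and 3409 of 8048 without one. The members' shares with all peaks lay near this background. A start of another gene lay within 10 kb for 57.1% of members against 28.9% of all genes, so the larger window often reaches a neighbour's promoter.

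The other genes of the pathway were read in the same way. Of 72 listed assembly factors, citric acid cycle enzymes, electron carriers and regulators, 33 were higher and 0 lower for H3K27ac within 2 kb (45.8%), 8 higher and 4 lower for H3K4me2, and 14 higher and 8 lower for H3K4me3. The H3K27ac share stood beside 22.2% of all genes and 42.6% of marked promoters. The H3K4me2 shares were 11.1% and 5.56%, against 18.1% and 4.73% of all genes and 24.7% and 8.57% of marked promoters. For H3K4me3 they were 19.4% and 11.1%, against 12.6% and 4.88%, and 24.2% and 9.54%. With the matched number of peaks the counts were 19 higher and 2 lower for H3K27ac (26.4%, with 25.9% of marked promoters). They were 7 and 8 for H3K4me2, where the balance turned, and 14 and 8 for H3K4me3. Over all genes the shares were then 13.3% and 1.54%, 15.4% and 7.03%, and 11.9% and 5.23%. Of the 11 regulators 9 were among the 33, and 6 were higher at the matched number. YY1 had 1866 and 2444 bp of H3K27ac in Corin and 407 and 554 bp in DMSO, and ESRRA, a nuclear receptor of mitochondrial genes, had 1633 and 1381 against 239 and 233 bp. ESRRA overlapped at the matched number, and YY1 stayed separated by less, with 1447 and 690 against 407 and 554 bp. NRF1 had 2114 and 1807 against 1523 and 1190 bp. PPARGC1A, the coactivator PGC-1 alpha, was at 0 in all 12 libraries, and its relative PPARGC1B had 1151 and 852 against 350 and 522 bp, and overlapped at the matched number. CYC1 and CYCS, the cytochromes of complex III and of the intermembrane space, were both higher, with 1934 and 1540 against 750 and 1063 bp and 1124 and 1456 against 459 and 738 bp. Of 13 citric acid cycle genes 4 were higher, and 1 at the matched number, and of 22 complex IV assembly genes 7 and 2.

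Ribosomal protein genes, another set of widely expressed genes, gave a further reading. For H3K27ac within 2 kb 48 of 86 were higher (55.8%) with a median difference of 443.75 bp, and 0 were lower. For H3K4me3 31 were higher and 2 lower (36.0% and 2.33%), where 12.6% and 4.88% of all genes were. For H3K4me2 it was 9 and 11 (10.5% and 12.8%), against 18.1% and 4.73% of all genes. With the matched number of peaks 33 were higher for H3K27ac (38.4%) and 0 lower. The share of members higher for H3K27ac, 39.8% with all peaks and 28.6% at the matched number, was below theirs, and the difference between the classes was not tested.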

How the data were processed

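The files analysed are 12 deposited peak lists, with coordinates on hg38. Per the submitters' processing notes, Trim Galore, Bowtie2, Picard and MACS2 were used, without versions or settings. The deposited score of each peak is a whole number of 50 or more, and its definition is not given in the sources used here. Each list belongs to 1 library. Base pairs under peaks were summed within 2 kb and 10 kb of the start of each gene's Ensembl canonical transcript (GENCODE 44), in Python 3.11.15. Differences were fitted with limma 3.58.1 (R 4.3.3) on bp, for genes above 0 in at least 1 library, with Benjamini-Hochberg adjustment over all genes fitted and a threshold of 0.05. Tested on simulated data for H3K27ac within 10 kb (10657 genes), the fit recovered 0 of 100 genes given 1000 bp and 67 of 100 given 4000 bp, and called 1 unchanged gene. Replicate numbers were used as names only, because nothing in the labels ties equal numbers to one culture or day.

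Named genes are, for each mark and window, up to 3 separated members with the largest positive and the largest negative difference, the tissue-restricted genes with their partners, the SDH genes, the c subunit genes and members without H3K4me3. Others were named after their values were seen. The members and lists were chosen with earlier results of these data known. Alternatives were the matched number of peaks, a score of at least 100, the gene record's end as TSS, the number of peaks, leaving out each library, a replicate block, log2(bp + 500) and no filter. Counts by complex, pathway list, shared promoter and region at the matched number were added after seeing the data. 1 result is not reported here.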

Additional observations from a re-analysis of the deposited data

How the results depend on the processing

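Counts of separated members are given as higher and lower, within 2 kb and then 10 kb. At the matched number they were 28 and 3, 32 and 3 for H3K27ac, and 10 and 20, 20 and 14 for H3K4me2. With a score of at least 100 the lower H3K27ac counts were 0 and 0. With the number of peaks in place of bp, a coarse measure, they were 3 and 1, 5 and 0 for H3K27ac, 6 and 2, 9 and 1 for H3K4me2, and 0 and 0, 1 and 0 for H3K4me3. Of all 20033 genes 1116 and 221, 2205 and 151 were separated by this measure for H3K27ac, 600 and 183, 1578 and 252 for H3K4me2, and 208 and 74, 290 and 108 for H3K4me3. Leaving out each library gave 47 to 62 and 5 to 11, 58 to 71 and 4 to 9 for H3K27ac, 23 to 46 and 17 to 37, 37 to 58 and 11 to 29 for H3K4me2, and 26 to 48 and 13 to 29, 30 to 47 and 13 to 28 for H3K4me3. These are larger by construction, since 3 libraries separate more easily than 4. Over all genes H3K27ac then gave 26.7% to 34.2% and 1.08% to 4.28%, 33.5% to 41.6% and 1.01% to 3.79%.

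With the replicate number as a block, limma called 5 members for H3K27ac within 2 kb (892 genes), 1 within 10 kb (814 genes) and 1 for H3K4me2 within 10 kb (334 genes), against 0 without it. The labels do not pair the libraries. Deviations of same-numbered libraries correlated at 0.223, 0.237 and 0.211 for H3K27ac, H3K4me2 and H3K4me3 over 20033 genes (bp within 10 kb), with 2 pairs each. Without the filter on low values limma called 1 member for H3K27ac within 10 kb (38 genes).

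Counted by number of peaks, 5 named differences changed sign: NDUFAF3 to -1.5 peaks for H3K27ac and 1.5 for H3K4me2 within 2 kb, ATP5PO to 0.5 within 2 kb and 0.5 within 10 kb, and COX7A2L to 0.5 within 10 kb, the last 3 for H3K4me2; the cause was not tested. Members with a peak within 1 kb in place of over the TSS numbered 71 and 85 in the DMSO libraries for H3K27ac, and 89, 89, 88 and 89 for H3K4me2. Of the 32 named differences, 30 stayed within the replicate spread at the matched number. It was 30 with a score of at least 100 and 28 with the TSS at the end of the gene record. By number of peaks only the sign was read, and 11 kept it while 16 had no difference. Leaving out 1 library cannot move a mean of 2 values beyond that spread, so it gives no test here. Sequencing depth per library is unknown, so differences in list length and in marks cannot be told apart by depth.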
